A study of Homo sapiens with 9 samples.

Results

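The genes described here mark the state of a cell between epithelial and mesenchymal, and they were followed in total RNA of the established human embryonic stem cell line H1. They were chosen by name: the epithelial genes CDH1 and EPCAM, the mesenchymal genes CDH2, VIM and FN1, and the transcription factors ZEB1, ZEB2, SNAI1, SNAI2 and TWIST1. All 10 were found among the 60829 rows of the deposited table. The knockout clone carries a knockout of the HERVHlin locus on chromosome X, part of a family of endogenous retroviruses transcribed in human pluripotent cells, and its genotype is given as knock out. The control clone of the same line has the genotype WT. Each group is 1 clone, with 5 libraries from successive passages of the knockout clone and 4 from successive passages of the control clone. The design text handles passages like technical replicates and the titles number them as biological ones, so every p-value measures only how passages of a single clone scatter. Both clones were grown in mTeSR medium on vitronectin and passaged in clumps, whereas a treatment label shared by all libraries calls the cells differentiated.

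Epithelial cells are held together by E-cadherin (CDH1) and EPCAM at their lateral membranes, and in an epithelial-mesenchymal transition these give way to N-cadherin (CDH2), vimentin (VIM) and fibronectin (FN1). Zinc finger factors of the ZEB and SNAI families and the helix-loop-helix factor TWIST1 repress CDH1 in that transition. MicroRNAs of the miR-200 family bind the 3′ UTRs of ZEB1 and ZEB2 and hold them low, and primed human embryonic stem cells grow as an epithelium that expresses CDH1, EPCAM and miR-200 microRNAs.

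The 5 knockout libraries held 21434888 to 31192630 recovered reads and the 4 control libraries 19838682 to 30388797, of which protein-coding genes took 26.3% to 50.8%. Control 3 stood apart: its highly expressed coding genes lay, on the log2 scale, a median of 0.67 above their 9-library mean, against -0.30 to 0.23 in the other libraries. The 3 rows that the authors mark as the knocked-out feature summed to 1283 to 2040 normalized counts in the knockout libraries and 3349 to 8405 in the control libraries. Normalized counts are the authors' read counts after division by a size factor for each library. Pluripotency markers were abundant in both clones, and POU5F1, the octamer-binding factor of pluripotent cells, averaged 7899 ± 1424 normalized counts in the knockout clone and 10768 ± 4092 in the control clone (SD, n = 5 and 4).

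None of the 10 genes differed between the clones at an adjusted p under 0.05 in limma on log2(value + 1), adjusted over all 27777 rows tested, of which 0.54% passed (150 rows: 32 higher in the knockout clone, 0.115%, and 118 lower, 0.425%). Of the 10, 9 passed the filter on low counts and TWIST1 did not. At an unadjusted p under 0.05, ZEB1 was higher in the knockout clone and CDH1, EPCAM, CDH2 and FN1 were lower, 5 of 9, where 8.63% of all tested rows (3.58% higher, 5.05% lower) and 8.56% of protein-coding rows with a mean of at least 50 were under that value. ZEB1 was also the only one of the 9 tested genes whose libraries did not overlap between the clones, against 3.95% of all tested rows, with 1.35% of all tested rows on the higher side. The 2 epithelial and the 3 mesenchymal genes all had a negative log2 fold change, under every setting tried. The median log2 fold change of the 9 was -0.34, beside 0.01 over all tested rows and -0.10 over protein-coding rows with a mean of at least 50, of which 67.1% were negative (49% of all tested rows).

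**Figure D1:**
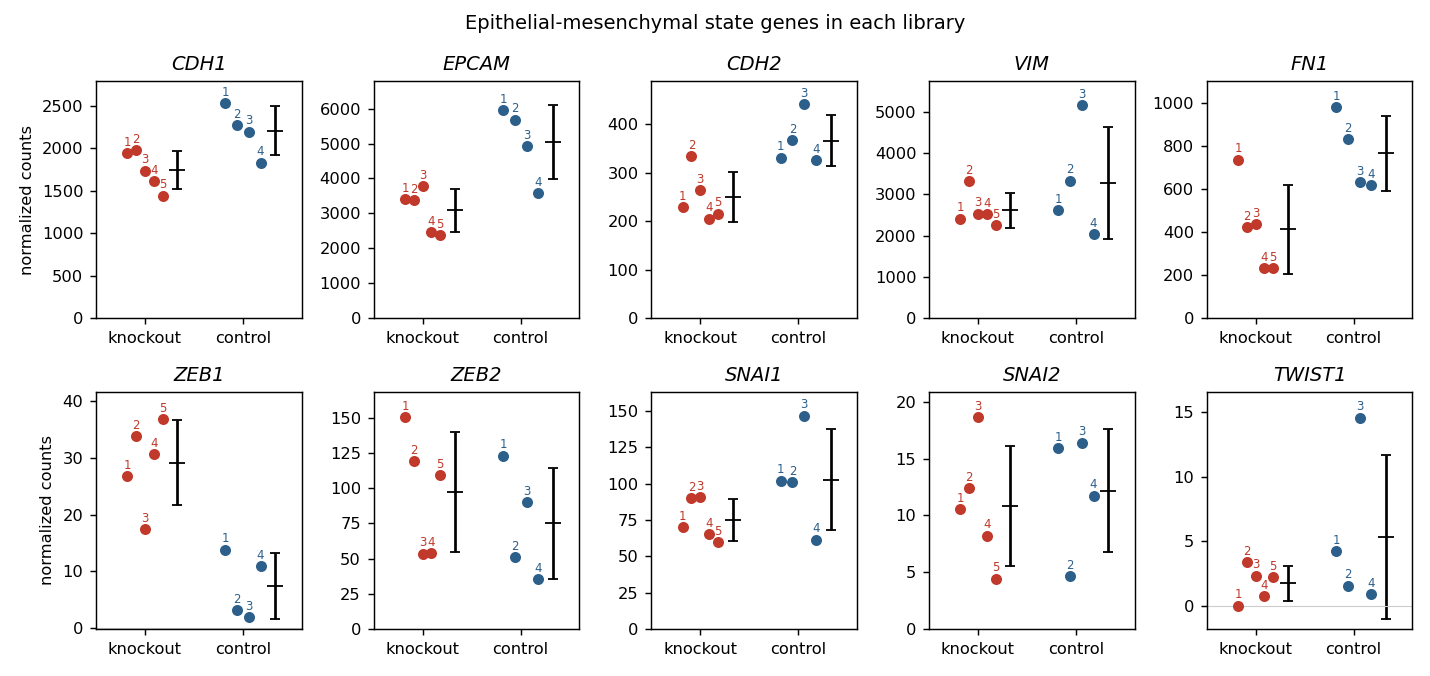
Normalized counts (y axes, from 0 and each to its own scale) of the 10 genes in every library, knockout clone in red and control clone in blue; numbers are replicates, and the bars beside the points are the mean ± SD. The 5 ZEB1 values of the knockout clone, 17.5 to 36.9, all lie above the 4 of the control clone, 1.82 to 13.8, while every other gene overlaps; the SD bar of TWIST1 in the control clone reaches below 0 because 1 library is far above the other 3.

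CDH1 (chr16:68737225-68835548, plus strand, GRCh38) encodes E-cadherin, the calcium-dependent adhesion molecule of adherens junctions. It measured 1947, 1979, 1737, 1617 and 1443 normalized counts in knockout libraries 1 to 5, and 2532, 2276, 2199 and 1832 in control libraries 1 to 4. The groups overlapped, since control 4 lay below knockout 1 and 2. The means were 1744 ± 225 in the knockout clone and 2209.6 ± 289 in the control clone (SD, n = 5 and 4), a log2 fold change of -0.34 (SE 0.15, 95% interval -0.68 to -0.0046, limma adjusted p = 0.572). With quantile normalization the difference was -0.13, and with each library centred on its highly expressed coding genes it was -0.15. From bulk RNA, fewer cells of a type and less RNA per cell cannot be told apart, for CDH1 as for every gene that follows.

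EPCAM (chr2:47345158-47387601, plus strand) encodes the epithelial cell adhesion molecule, a surface glycoprotein also used to sort pluripotent cells. It measured 3417, 3377, 3788, 2469 and 2369.8 normalized counts in knockout libraries 1 to 5, against 5959.7, 5686, 4918 and 3587 in control libraries 1 to 4. Only knockout 3 reached into the control range, above control 4. The mean was 3084 ± 628 in the knockout clone and 5038 ± 1063 in the control clone (SD, n = 5 and 4), 1.63 times higher in the control clone. The log2 fold change of -0.71 (SE 0.21, interval -1.18 to -0.23) did not pass in limma (adjusted p = 0.281), but did in DESeq2 on the recovered reads (adjusted p = 0.049), which called 2.14% of its rows. With quantile normalization the difference was -0.41.

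CDH2 (chr18:27950966-28177446, minus strand) encodes N-cadherin, the adhesion molecule that replaces E-cadherin in mesenchymal and neural cells. It measured 229.9, 335, 264, 206 and 216 normalized counts in knockout libraries 1 to 5, and 332, 368, 441 and 326 in control libraries 1 to 4. Knockout 2 alone reached the control range. Means of 250.1 ± 52.3 in the knockout clone and 367 ± 53.1 in the control clone (SD, n = 5 and 4) gave a log2 fold change of -0.56 (SE 0.18, interval -0.96 to -0.17, limma adjusted p = 0.322). The sign of this difference was that of CDH1.

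VIM (chr10:17228259-17237593, plus strand) encodes vimentin, the intermediate filament protein of mesenchymal cells. In knockout libraries 1 to 5 it measured 2413, 3325, 2536, 2526 and 2248 normalized counts, against 2611, 3331, 5159 and 2036 in control libraries 1 to 4. The control libraries held both the highest and the lowest of the 9 values. The log2 fold change was -0.26 (SE 0.26, interval -0.83 to 0.31, limma adjusted p = 0.812), and it was -0.01 without control 3, the library that stood apart. It was -0.46 without control 4, -0.01 with quantile normalization and -0.07 with centring on coding genes.

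FN1 (chr2:215360440-215436172, minus strand) encodes fibronectin, a matrix glycoprotein that binds integrins. It measured 739, 424, 438, 234 and 233 normalized counts in knockout libraries 1 to 5, and 984, 834, 634 and 619.6 in control libraries 1 to 4. The clones overlapped through knockout 1, which lay above control 3 and 4. In each clone the first replicate held the highest value and the last replicate the lowest, and knockout 5 has no control partner. With a block for replicate number the limma adjusted p was 0.255. A trend over passages was not tested. The knockout mean of 413 ± 207 and the control mean of 768 ± 174 (SD, n = 5 and 4) differed by 1.86 times, with a log2 fold change of -1.0 (SE 0.34, interval -1.76 to -0.24, limma adjusted p = 0.385).

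ZEB1 (chr10:31318495-31529814, plus strand) encodes a zinc finger repressor of CDH1 and of the miR-200 genes. It measured 26.8, 33.8, 17.5, 30.6 and 36.9 normalized counts in knockout libraries 1 to 5, and 13.8, 3.11, 1.82 and 10.8 in control libraries 1 to 4. These values stand for few reads, 28, 30, 15, 41 and 50 in the knockout libraries and 13, 2, 2 and 12 in the control libraries. All 5 knockout libraries lay above all 4 control libraries, and control 2 and 3 lay well below control 1 and 4. The means of 29.1 ± 7.51 in the knockout clone and 7.40 ± 5.84 in the control clone (SD, n = 5 and 4) stood 3.94-fold apart.

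On the log2(value + 1) scale the ZEB1 difference was 2.12 (SE 0.53, interval 0.93 to 3.32). Its limma p of 0.00278 became an adjusted p of 0.176, so the gene was not called. DESeq2 on the recovered reads called it (log2 fold change 1.97, adjusted p = 0.0419) and edgeR's quasi-likelihood test did not (adjusted p = 0.243). In the authors' deposited table its log2 fold change is 1.96 (SE 0.53) with an adjusted p of 0.0161, the only one of the 10 genes under 0.05 there, where 2.05% of the rows with an adjusted p are. With any 1 library left out the limma adjusted p was 0.130 to 0.415 and the difference stayed positive, and a pseudocount of 10 reduced it to 1.21.

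The family of microRNAs known to bind ZEB1 has 5 members with 2 seeds, and their mature sequences (RefSeq, GRCh38.p14) are shown because the matches counted next rest on them, with the seed (bases 2 to 8) in capitals.
hsa-miR-200b-3p: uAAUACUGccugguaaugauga
hsa-miR-200c-3p: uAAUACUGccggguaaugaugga
hsa-miR-429: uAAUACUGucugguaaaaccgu
hsa-miR-200a-3p: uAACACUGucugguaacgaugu
hsa-miR-141-3p: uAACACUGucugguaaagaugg
The first 3 share a seed whose match in a transcript is CAGTATT, and the other 2 share a seed whose match is CAGTGTT.

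For each gene the 3′ UTR of its longest coding transcript in GENCODE 29 was scanned. That of ZEB1 (2549 bases) held 6 matches to CAGTATT and 3 to CAGTGTT, and that of ZEB2 (5370 bases) held 5 and 4. Of 19040 genes scanned on the transcript strand, 28.1% had at least 1 match of either kind and 0.0315%, 6 genes, had at least 9. FN1 had 2 matches, SNAI2 had 1, and CDH1, EPCAM, CDH2, VIM, SNAI1 and TWIST1 had 0. A match is a run of letters and not a measured site of binding. Examples from ZEB1 and ZEB2, with the seed match in capitals, are these.
ZEB1 chr10:31527621-31527647 plus strand: gttttatcttatCAGTATTatcactct
ZEB1 chr10:31528495-31528521 plus strand: atttttacctatCAGTATTattttatt
ZEB1 chr10:31528034-31528060 plus strand: aatcatcagaatCAGTGTTtgtgattg
ZEB2 chr2:144389045-144389071 minus strand: actaccatacatCAGTATTtttattat
The microRNAs themselves were hardly measured by this total RNA assay. Their 5 hairpin rows were at 0 in 21 of 45 values, and the values above 0 stood for 38 to 184 reads. MIR200C measured 83.3, 0, 55.9, 0 and 0 normalized counts in knockout libraries 1 to 5, and 51.0, 93.2, 0 and 45.2 in control libraries 1 to 4. MIR429 also averaged lower in the knockout clone, at 35.8 against 71.2 in the control clone. MIR200A (36.1 against 0), MIR200B (79.2 against 46.5) and MIR141 (36.9 against 15.9) averaged higher in the knockout clone. With so many values at 0 and both signs present, no difference could be read from these rows.

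ZEB1-AS1 is a transcript on the opposite strand at the start of ZEB1 (chr10:31206278-31320447, minus strand) and shares 366 exonic bases with it, 4.23% of the exonic bases of ZEB1. It measured 147, 138, 127, 109 and 85.5 normalized counts in knockout libraries 1 to 5, and 92.4, 48.2, 81.1 and 56.9 in control libraries 1 to 4. Only control 1 reached into the knockout range. The log2 fold change was 0.81 (SE 0.24, adjusted p = 0.289 in limma), on the same side as that of ZEB1. No source used here says whether the authors' counting used the strand, so reads from the shared bases of both genes cannot be told apart.

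ZEB1 and the SNAI factors bind the E-box CAGGTG, read as CACCTG on the other strand. The RefSeq window of 300 bases around 1 of the 7 annotated starts of ZEB1 holds 3 of them, at positions 9, 166 and 284. It is shown, with the E-boxes in capitals, because ZEB1 was the gene whose clones did not overlap.
ZEB1 chr10:31318966-31319265 plus strand: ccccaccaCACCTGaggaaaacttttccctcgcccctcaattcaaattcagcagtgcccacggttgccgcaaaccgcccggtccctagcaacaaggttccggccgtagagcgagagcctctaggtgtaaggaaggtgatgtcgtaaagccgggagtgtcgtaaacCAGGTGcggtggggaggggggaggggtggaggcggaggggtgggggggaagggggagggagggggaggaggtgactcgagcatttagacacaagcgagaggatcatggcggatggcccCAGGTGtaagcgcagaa
Of 35116 such windows, each from 250 bases before a start to 50 after it, 20.6% held at least 1 CAGGTG on either strand and 0.635% held 3 or more. The window shown held the most matches of the 7 of ZEB1, whereas these shares are per window and not per gene. Its match at position 284 lies after the start. A second ZEB1 window held 1 match and the other 5 held 0. The windows of CDH2 (2), VIM, FN1 and ZEB2 (1 each) also held 0, and windows of CDH1, EPCAM, SNAI1, SNAI2 and TWIST1 were not analysed here.

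ZEB2 (chr2:144364364-144524583, minus strand) encodes the paralogue of ZEB1, which represses CDH1 through the same E-boxes. It measured 150.4, 119.5, 53.6, 53.8 and 109 normalized counts in knockout libraries 1 to 5, and 123, 51.3, 90.2 and 35.2 in control libraries 1 to 4. The clones overlapped over nearly the whole range, and the log2 fold change was 0.41 (SE 0.44, interval -0.57 to 1.39, limma adjusted p = 0.821). It ranged from 0.10 without control 4 to 0.70 without control 1. Its antisense transcript ZEB2-AS1 was high in 2 knockout libraries, with 50.8, 2.25, 65.2, 0.747 and 1.47 normalized counts in knockout libraries 1 to 5, and 2.13, 0, 0.912 and 0 in control libraries 1 to 4. It did not pass the filter and was not tested.

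SNAI1 (chr20:49982999-49988886, plus strand) encodes Snail, an early repressor of CDH1. It measured 69.9, 90.2, 90.8, 65.0 and 59.7 normalized counts in knockout libraries 1 to 5, and 102, 101, 147 and 61.4 in control libraries 1 to 4. Of the 4 control libraries 3 lay above all knockout libraries and control 4 lay among them. The log2 fold change was -0.40 (SE 0.26, interval -0.98 to 0.18, limma adjusted p = 0.729), -0.21 without control 3 and -0.63 without control 4.

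SNAI2 (chr8:48917604-48921740, minus strand) encodes Slug, a repressor known from neural crest and mesoderm. It had 11, 11, 16, 11 and 6 reads in knockout libraries 1 to 5, and 15, 3, 18 and 13 in control libraries 1 to 4. Its means of 10.8 ± 5.27 normalized counts in the knockout clone and 12.2 ± 5.44 in the control clone (SD, n = 5 and 4) differed by less than their spread (log2 fold change -0.15, SE 0.51, interval -1.29 to 0.99, limma adjusted p = 0.938). The sign of that difference turned under several settings. TWIST1 (chr7:19020991-19117672, minus strand), which encodes a factor of mesoderm and cranial mesenchyme, had 0, 3, 2, 1 and 3 reads in knockout libraries 1 to 5, and 4, 1, 16 and 1 in control libraries 1 to 4. Its only value over 5 normalized counts was the 14.6 of control 3.

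**Figure D2:**
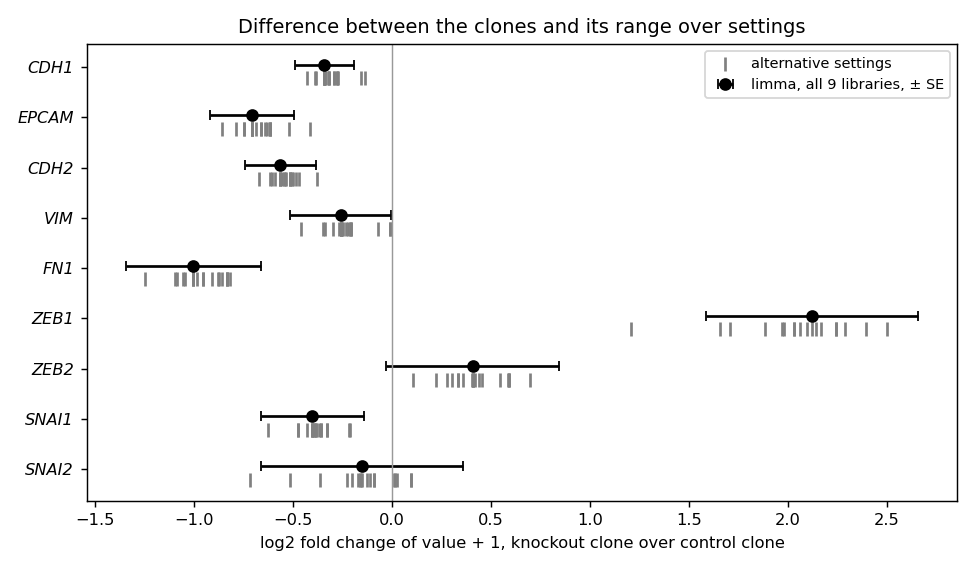
Log2 fold change (x axis, log2 of value + 1, knockout clone over control clone) of the 9 tested genes; dots and bars are the limma estimate ± SE over all 9 libraries, and ticks are the same difference under the alternative settings. ZEB1 stays above 0 under all of them, at 1.21 to 2.50, CDH1, EPCAM, CDH2, VIM, FN1 and SNAI1 stay below 0, and only SNAI2 lies on both sides.

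Per kilobase of the longest coding transcript, EPCAM was the most abundant of the 10 in both clones, with 1789 normalized counts per kilobase in the knockout clone and 2922 in the control clone. VIM followed with 1397 and 1758, then CDH1 with 357 and 452, in the knockout and the control clone. VIM and EPCAM overlapped over the libraries, at 1090 to 2762 and 1375 to 3457, while CDH1 lay below both at 295 to 518. A vimentin transcript level above that of E-cadherin was thus measured in both clones.

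CDH2 (57.7 per kilobase in the knockout clone and 84.7 in the control clone), FN1 (46.4 and 86.2) and SNAI1 (44.6 and 61.0) formed a lower tier whose ranges over the libraries overlapped. ZEB2 (10.2 and 7.83), SNAI2 (4.47 and 5.02), ZEB1 (4.65 and 1.18) and TWIST1 (1.04 and 3.20) formed the lowest tier, again with overlapping ranges. ZEB1 was 8th of the 10 in the knockout clone and 10th in the control clone. Counting all exonic bases of a gene in place of the longest transcript swapped FN1 and SNAI1 in the order.

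Ratios of these genes were taken within each library on value + 1. The log2 ratio of CDH2 to CDH1 was -2.81 ± 0.21 in the knockout clone and -2.59 ± 0.26 in the control clone (SD, n = 5 and 4), and that of VIM to CDH1 was 0.58 ± 0.17 and 0.49 ± 0.54 in the same order. Both overlapped between the clones. The difference of -0.22 in CDH2 to CDH1 lay between the SDs of the clones, and the difference of 0.08 in VIM to CDH1 lay below both. The ratio of VIM to EPCAM was -0.23 ± 0.29 in the knockout clone and -0.68 ± 0.53 in the control clone, with control 3 at 0.07, above all knockout libraries. The ratio of ZEB1 to CDH1 was the one that separated the clones, at -6.56 to -5.25 in the knockout libraries and -9.61 to -7.27 in the control libraries. The ratios among the abundant genes thus overlapped between the clones, and the ratio that holds the low ZEB1 values did not.

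**Figure D3:**
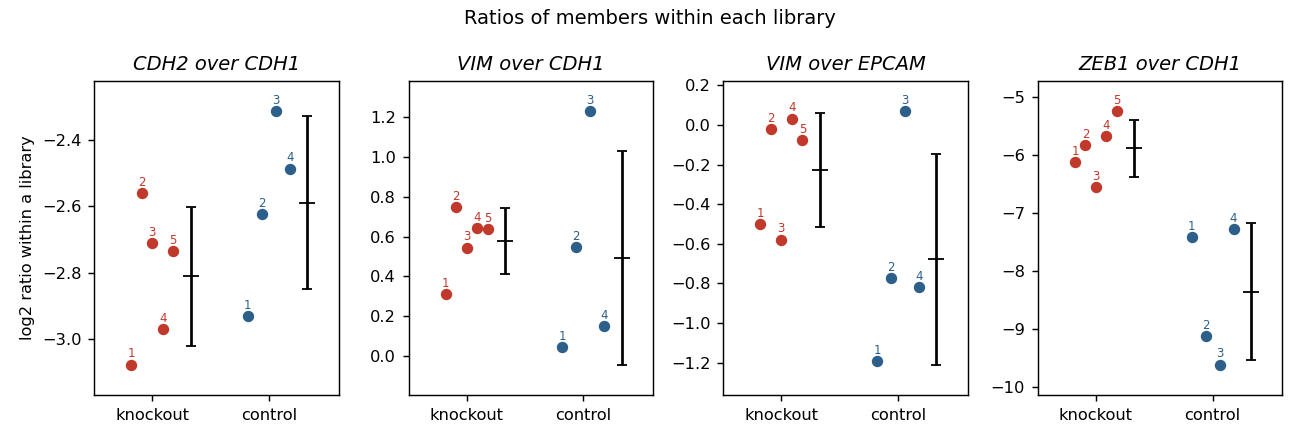
Log2 ratios (y axes, value + 1 of the first gene over value + 1 of the second) within each library of the knockout clone (red) and the control clone (blue), with the mean ± SD beside the points and replicate numbers above them. CDH2 over CDH1, VIM over CDH1 and VIM over EPCAM overlap between the clones, and ZEB1 over CDH1 does not.

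Other genes of the epithelial state were counted from lists of junction, keratin and regulator genes. Of 33 tested genes of epithelial junctions and polarity, limma called 1 lower, where 0.425% of all tested rows were, and 0 higher. A negative log2 fold change was found for 27 of the 33, beside 67.1% of protein-coding rows with a mean of at least 50. On that side, 7 had an unadjusted p under 0.05 in limma, where 5.05% of all tested rows did. Of protein-coding rows with a mean of at least 50, 8.56% did in either direction. The list median was -0.21, but -0.028 with centring on coding genes, -0.093 with quantile normalization, -0.10 without control 3 and -0.33 without control 4. The gene that fell was PKP3 (chr11:392614-404908), which encodes the desmosomal plaque protein plakophilin 3. It measured 42.1, 47.4, 50.1, 49.3 and 28.7 normalized counts in knockout libraries 1 to 5, and 170.0, 252, 389 and 154 in control libraries 1 to 4. All 5 knockout libraries lay below all 4 control libraries.

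PKP3 averaged 43.5 ± 8.82 normalized counts in the knockout clone and 241 ± 107 in the control clone (SD, n = 5 and 4), 5.54 times higher in the control clone (log2 fold change -2.37, SE 0.30, adjusted p = 0.00731 in limma). It passed with any 1 library left out (adjusted p = 0.00692 to 0.0392), but not with a block for replicate number (adjusted p = 0.0619). Its relative PKP2, named like the other desmosome genes after the values were seen, had means of 239.7 ± 78.0 in the knockout clone and 541 ± 151 in the control clone, without overlap (log2 fold change -1.19, SE 0.29, adjusted p = 0.166 in limma and 0.00775 in DESeq2). Of all tested rows 3.95% did not overlap, and DESeq2 called 2.14% of its rows. Log2 fold changes of -0.10 for desmoplakin (DSP), -0.05 for plakoglobin (JUP), -0.31 for desmoglein 2 (DSG2) and -0.17 for desmocollin 2 (DSC2) did not pass in limma.

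The most abundant junction genes did not pass in limma. CLDN6, a tight junction claudin of pluripotent cells, averaged 3612 ± 854 normalized counts in the knockout clone and 5883 ± 1741 in the control clone (log2 fold change -0.69, limma adjusted p = 0.395), and CTNNB1, which encodes beta-catenin, had a log2 fold change of 0.19. Of 20 tested keratin and surface genes limma and DESeq2 called 0 (limma gave 2 an unadjusted p under 0.05, both lower). Of these 20 genes 18 were negative, beside 67.1% of protein-coding rows with a mean of at least 50. Their median was -0.23, but -0.043 with centring on coding genes, -0.14 with quantile normalization and -0.40 without control 4. Among them CD24, a surface glycoprotein, differed by -0.23 and KRT18, a keratin of simple epithelia, by -0.39. Of 16 tested epithelial regulators, limma and DESeq2 called 0 (2 had an unadjusted p under 0.05 in limma, 1 on each side), and 10 were negative. ESRP1, the splicing factor that sets epithelial isoforms, differed by -0.09, and MIR205HG, the host transcript of another microRNA known to bind ZEB1 and ZEB2, by 0.78 (limma adjusted p = 0.456).

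Of the 37 tested genes of the mesenchymal matrix and cytoskeleton limma called 0. The log2 fold change was negative for 34 of them, beside 67.1% of protein-coding rows with a mean of at least 50. On that side 12 had an unadjusted p under 0.05 in limma, where 5.05% of all tested rows did. Of protein-coding rows with a mean of at least 50, 8.56% did in either direction. The median of the list was -0.45 (-0.27 with centring on coding genes). DESeq2, which called 2.14% of its rows in either direction, called 3 of the list lower. They are named for that: VCAN, the proteoglycan versican (DESeq2 adjusted p = 0.00765), COL6A1, a collagen VI chain (0.0116), and FBLN1, fibulin 1 (0.0305). VCAN averaged 1575 ± 293 normalized counts in the knockout clone and 3062 ± 903 in the control clone (SD, n = 5 and 4). The clones overlapped for none of the 3, where 3.95% of all tested rows did not overlap. As the 3 were picked by DESeq2 on the same libraries, this adds nothing separate. SPARC, a collagen-binding matrix protein, averaged 3025 ± 709 normalized counts in the knockout clone and 4911 ± 1275 in the control clone (log2 fold change -0.69, limma adjusted p = 0.388), and tropomyosin 1 (TPM1) differed by -0.58. Of 17 tested mesenchymal surface genes limma called 0 (5 had an unadjusted p under 0.05, 4 of them lower), and 12 were negative, with THY1 at -0.23 and the integrin ITGB1 at -0.51. The median was -0.33, but -0.14 with centring on coding genes and -0.49 without control 4. DESeq2 called MCAM, an adhesion molecule named for that, which averaged 93.3 ± 34.8 normalized counts in the knockout clone and 232 ± 27.1 in the control clone without overlap (log2 fold change -1.40, adjusted p = 0.12 in limma and 0.00226 in DESeq2). In the authors' deposited table MCAM and DDR2, a collagen receptor, are the 2 genes of this list under 0.05. Of 12 genes of TGF-beta signalling, the pathway best known to start such a transition, limma and DESeq2 called 0 (2 had an unadjusted p under 0.05 in limma, both lower) and 8 were negative, with SKIL, a SMAD corepressor, at -0.57 and SMAD4 at 0.03.

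Of 19 other transcription factors and cofactors tied to the transition, limma called 2 lower and 0 higher, beside 0.425% and 0.115% of all tested rows. The most abundant, the histone-modifying enzymes HDAC2 and KDM1A, differed by -0.18 and -0.04. ID1, an inhibitor of helix-loop-helix factors and a target of BMP signalling, averaged 139.8 ± 42.2 normalized counts in the knockout clone and 587 ± 244 in the control clone (log2 fold change -2.02, SE 0.31, adjusted p = 0.0224 in limma), and passed in 3 of 9 fits that left out 1 library. ETS1, an ETS-family activator, averaged 78.1 ± 20.9 and 226 ± 74.0 in the same order (log2 fold change -1.50, SE 0.27, adjusted p = 0.0471 in limma). It passed in 2 of 9 such fits, with an adjusted p of up to 0.166 in the rest, and with a block for replicate number its adjusted p was 0.140. For both ID1 and ETS1, all knockout libraries lay below all control libraries, where 3.95% of all tested rows did not overlap in either direction. The median of this list (-0.11) turned to 0.073 with centring on coding genes, 0.098 with quantile normalization and 0.087 without control 3, and that of the epithelial regulators (-0.12) to 0.068 with centring.

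**Figure D4:**
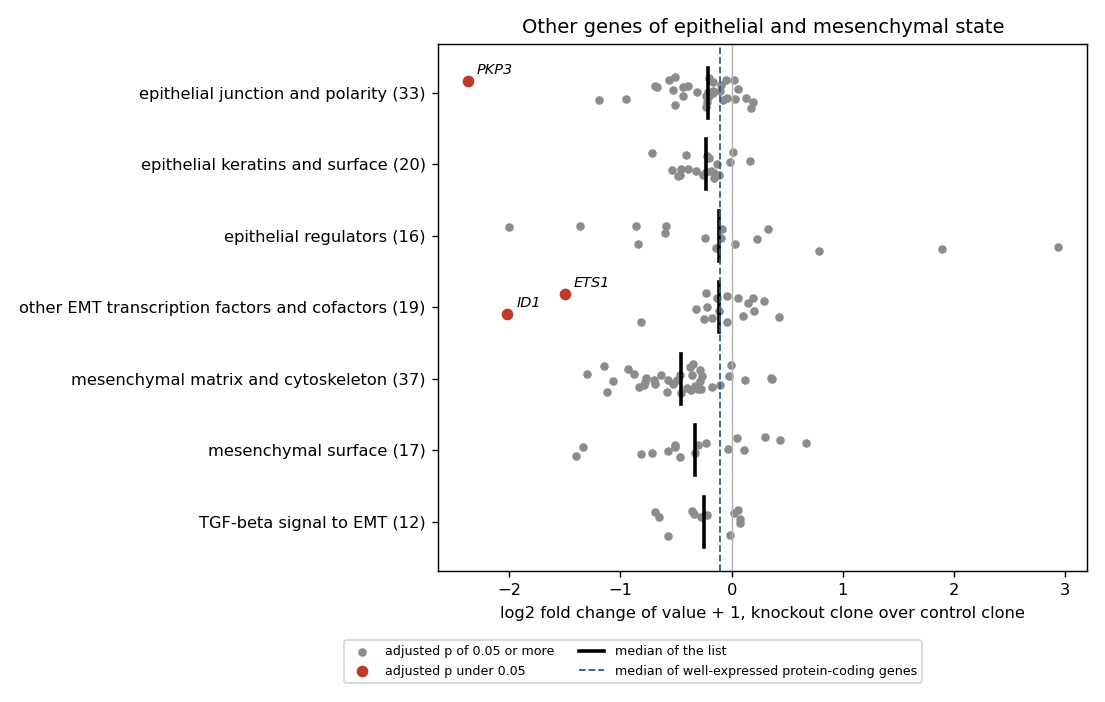
Log2 fold change (x axis, log2 of value + 1, knockout clone over control clone) of each tested gene in 7 lists of epithelial and mesenchymal genes, with the number tested in brackets; black bars are list medians, the dashed line is the median of protein-coding genes averaging at least 50 normalized counts, and red points passed at an adjusted p under 0.05. PKP3, ID1 and ETS1 are the only red points (limma), all below 0, and the matrix list lies farthest to the left with a median of -0.45; the widely spread regulator points include sparse microRNA rows.

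Markers of other cell types that can express these genes were summed in each library. Of 12 fibroblast markers 7 were tested, and their sum was 2987 to 4659.8 normalized counts in the knockout libraries and 3399.6 to 6051 in the control libraries, carried by THY1, COL1A2 and COL1A1, while LUM, FAP, COL3A1 and PRRX1 averaged under 5. The most abundant of the list, THY1 and COL1A2, differed by -0.23 and -0.01, and COL1A1 by -0.78 (limma adjusted p = 0.419). Of the 7 tested, limma called 0 and 5 were negative. An unadjusted p under 0.05 was found for 2, both lower, where 5.05% of all tested rows were on that side. The 9 neural crest markers summed to 745 to 964 in the knockout libraries and 909.5 to 1265 in the control libraries, with TFAP2B at 0 in all 9 libraries. Beside ETS1, ERBB3 and FOXD3 were its most abundant genes and differed by -0.13 and -0.35. The 12 mesendoderm markers summed to 55.3 to 114 and 83.1 to 164 in the same order, and the 9 endoderm markers to 68.0 to 344 and 125 to 264, with SOX17, FOXA2 and GATA6 at or near 0. Log2 fold changes of -0.18 for TBX6, -1.02 for CER1, -0.15 for CXCR4 and -0.79 for AFP, the most abundant of these 2 lists, did not pass in limma. Of the 5 tested mesendoderm markers 4 were negative. WNT3 and MIXL1, named after their values were seen, were lower in the knockout clone without overlap, where 3.95% of all tested rows did not overlap. WNT3 averaged 4.92 in the knockout clone and 16.2 in the control clone, on 3 to 19 reads. Its log2 fold change was -1.58 (adjusted p = 0.159 in limma and 0.0427 in DESeq2, which called 2.14% of its rows). MIXL1 differed by -0.71 (limma adjusted p = 0.630).

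Neural ectoderm markers summed to 608 to 785 normalized counts in the knockout libraries and 605 to 1115 in the control libraries, but the sum holds differences of opposite sign. NES, which encodes nestin and makes up most of it, averaged 401 ± 62.9 in the knockout clone and 646 ± 202 in the control clone (log2 fold change -0.64, limma adjusted p = 0.412). MAP2, a microtubule protein of neurons, averaged 236 ± 44.6 and 156 ± 12.3 in the same order without overlap (log2 fold change 0.58, adjusted p = 0.253 in limma and 0.0497 in DESeq2). Of all tested rows 3.95% did not overlap, and DESeq2 called 2.14% of its rows. DLK1, PAX6 and LHX2 were named after their values were seen. They averaged 30.5, 10.1 and 6.0 in the knockout clone and 10.4, 4.47 and 1.57 in the control clone. ZIC1 and OTX1, named likewise, were lower, at 3.60 and 10.9 in the knockout clone and 16.0 and 16.3 in the control clone. ZIC1 did not overlap between the clones. DLK1 and OTX1 did not pass in limma, and PAX6, LHX2 and ZIC1 were not tested.

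The 10 trophectoderm and amnion markers were the marker list whose sums did not overlap, at 556 to 1607 normalized counts in the knockout libraries and 1709 to 4496 in the control libraries. GABRP, a GABA receptor subunit, carried most of it, with 903 ± 409 in the knockout clone and 2992 ± 1217 in the control clone (SD, n = 5 and 4; log2 fold change -1.74, adjusted p = 0.104 in limma and 0.000615 in DESeq2), and TFAP2C differed by -1.61 (adjusted p = 0.106 in limma and 0.00223 in DESeq2). CDX2, GATA3 and GATA2, which define trophectoderm, averaged under 5 in both clones. The 14 pluripotency markers summed to 39671 to 58494 in the knockout libraries and 46885 to 92158 in the control libraries. Of these markers 13 were negative, beside 67.1% of protein-coding rows with a mean of at least 50. Their list median was -0.46 (-0.28 with centring on coding genes and -0.19 with quantile normalization). LIN28A, the most abundant, differed by -0.38. UTF1 and DPPA2, named after their values were seen, had the largest differences of the list, without overlap, where 3.95% of all tested rows did not overlap. DESeq2, which called 2.14% of its rows, called both of them, as it did GABRP and TFAP2C. UTF1 averaged 93.7 ± 41.4 in the knockout clone and 368 ± 133 in the control clone (log2 fold change -1.98, adjusted p = 0.0676 in limma and 4.96e-05 in DESeq2). DPPA2 averaged 42.0 ± 15.2 and 125 ± 39.5 in the same order (log2 fold change -1.58, adjusted p = 0.105 in limma and 0.00131 in DESeq2). The part of these marker lists in the differences of EPCAM, FN1 and ZEB1 was not tested.

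Over the 9 libraries, the rows most like CDH1, EPCAM, CDH2 and FN1 were found by Pearson correlation of log2(value + 1) among 15976 rows with a symbol and a mean of at least 50. The libraries share clone, passage and scaling, so these values only describe likeness. CDH1 was most like BCAM (r = 0.988), which encodes a laminin-binding adhesion molecule, then RGS2 (0.973) and RBMS2 (0.973). EPCAM was most like NAP1L6P (0.973), RP11-1150C11.2 (0.973) and LRRC2 (0.972). CDH2 was most like LMCD1 (0.989), PLPPR2 (0.979) and the glutamine transporter gene SLC1A5 (0.975). FN1 was most like the laminin gene LAMC1 (0.969), then PPM1L (0.965) and ZNF501 (0.964).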

How the data were processed

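A stranded total RNA kit was used on rRNA-depleted RNA, per the labels' protocols. The submitters' processing notes name fastp, kallisto, DESeq2 and hg38, without versions or roles. No source used here gives the annotation release or the use of strand. Each library has 1 deposited signal column, the authors' gene counts after division by a size factor. Within a tolerance of 1e-06, 100% of values were whole multiples of their library's lowest value over 0, so reads were recovered by division. No per-sample columns were left out. The authors' log2 fold changes with their standard errors, test score and p-values stand in the same deposited table, and the authors' mark of EMT genes was not used.

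The planned test for raw counts was edgeR, and for normalized values limma. As the values were normalized counts, limma 3.58.1 (under R 4.3.3) was fitted, with a trend of variance on mean, to log2(value + 1) of all 9 libraries with the clone as the only term. Rows passed edgeR's filterByExpr with a minimum count of 10 (27777 rows), and Benjamini-Hochberg adjusted p-values under 0.05 were called. Count tests of these reads called 151 rows with edgeR 4.0.16 (quasi-likelihood) and 593 with DESeq2 1.42.0. Intervals are 95% intervals from limma. Other alternatives were pseudocounts of 0.5 and 10, other filters, TMM and quantile scaling, centring on the 2000 most abundant coding genes, and leaving out each library. The fits were tested on simulated data. Positions and 3′ UTRs are from GENCODE 29 (GRCh38), matched on Ensembl ID, and microRNAs and promoter windows from RefSeq (GRCh38.p14).

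Replicate numbers stand under the batch tag of the labels, and libraries sharing one are called pairs here. The main fit did not use this pairing. Within pairs 1 to 4, the correlation of deviations from the clone mean was 0.062, 0.013, 0.28 and 0.36. Knockout 5 has no partner. The fit with this number as a block was an alternative.

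The genes and lists were chosen with earlier results of these data known. The text names the 10 genes, up to 5 called genes and the 2 most abundant genes of each list, and for 5 of the 10 genes the 3 rows most like each, which for VIM are not reported here. Of the most abundant neighbouring and antisense rows, EPCAM-DT and TWISTNB differed by 0.31 and -0.16. Other names give antisense rows, the defining markers of a list or genes chosen after their values were seen.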

Additional observations from a re-analysis of the deposited data

Results flagged for a closer look

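In 5 of the 86 groups checked, 1 library stood far from the others of its clone, and chance gives about 1 in 20. VIM measured 3325 normalized counts in knockout 2, against 2248 to 2536 in the other knockout libraries. ESRP1 measured 1577 in knockout 3, against 1223 to 1274 in the others of that clone. MIR205HG measured 1268 in knockout 2, against 462 to 651 in the others of that clone. In control 3, CTNNB1 measured 4371, against 2266 to 2456 in the other control libraries, and KDM1A measured 3180, against 1609 to 1727. Control 3 is the library whose highly expressed coding genes as a whole lay a median of 0.67 above their mean on the log2 scale.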

How the results depend on the processing

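Over all rows, 150 calls became 593 with DESeq2 (144 higher and 449 lower in the knockout clone) and 43 with the replicate number as a block (14 higher and 29 lower), a fit to which knockout 5 adds nothing. Higher calls numbered 16 with a mean of at least 50. With 1 library left out there were 79 to 186 calls, 19 to 50 higher and 54 to 136 lower. The total fell by more than 1.5 times without knockout 2 (95), knockout 4 (79), knockout 5 (80), control 1 (93), control 2 (80) or control 3 (94). Lower calls made up 78.7% of the total, and 62.8% without control 3. Among the 10 genes, DESeq2 called 2, 1 higher (ZEB1) and 1 lower (EPCAM), and every other setting called 0. The log2 fold change of SNAI2 turned to 0.014 with centring on coding genes and 0.099 with the block, and ranged from -0.52 to 0.099 with 1 library left out, positive without knockout 5 (0.099), control 1 (0.011) or control 3 (0.024); the cause was not tested. Pairing by replicate number ended the calls of PKP3 and ETS1 and of no other named gene. Centring on coding genes moved the median of all rows up by 0.18. Low reads limit ZEB1, SNAI2 and TWIST1, and the 1 clone per group limits every comparison.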
